A study of Rattus norvegicus with 6 samples.

Results

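The Notch genes described here, in cultured heart muscle cells of newborn rats, were the receptors Notch1, Notch2, Notch3 and Notch4, the ligands Jag1, Jag2 and Dll4, and the target genes Hes1, Hey1 and Hey2. They were chosen by symbol, each symbol occurs once, and they make up 10 of the 32623 genes in the deposited table. The series has 6 RNA-sequencing libraries of primary ventricular myocardial cells from Sprague-Dawley rats at postnatal day 1 to 3, in 2 groups of 3. The siMettl3 group received a small interfering RNA against Mettl3 for 24 h and then LPS (lipopolysaccharide, bacterial endotoxin) for 6 h. The siNC group received a negative-control RNA and LPS for the same times. Both groups had LPS, and the comparison therefore shows no response to LPS itself. All libraries trace back to 1 isolate made from pooled rats, so the spread behind each p-value is that between these 6 libraries and may be technical. The cultures were not sorted, and in bulk RNA fewer cells of a type cannot be told apart from less RNA per cell.

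Notch receptors are single-pass proteins of the cell surface that are activated by ligands on a neighbouring cell. Ligand binding exposes the receptor to an ADAM protease and then to gamma-secretase, which frees the intracellular domain. That domain enters the nucleus and joins the DNA-binding protein RBPJ and a Mastermind coactivator to switch on target genes, of which the repressors of the HES and HEY families are the best known. In the heart the pathway is known for its part in trabeculation, in the formation of valves and in the vessels, where Notch1, Notch4 and Dll4 mark endothelium and Notch3 marks smooth muscle and pericytes. In neonatal cardiomyocytes Jag1 and Notch1 are known for a part in proliferation.

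RBPJ recognises a core of 6 bases, TGGGAA, and the upstream stretches of the target genes Hes1 and Hey2 are shown because the core occurs more than once in each. The sequences are from RefSeq on GRCr8, 5′ to 3′ on the strand of the gene, with each core in capitals (TTCCCA where it lies on the other strand). The Hes1 stretch covers positions -150 to -51 from the start (chr11:84213096-84213195, minus strand), and the Hey2 stretch positions -190 to -41 (chr1:28640910-28641059, plus strand).
Hes1: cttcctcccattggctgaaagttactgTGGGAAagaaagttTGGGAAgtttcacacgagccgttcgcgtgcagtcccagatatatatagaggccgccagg
Hey2: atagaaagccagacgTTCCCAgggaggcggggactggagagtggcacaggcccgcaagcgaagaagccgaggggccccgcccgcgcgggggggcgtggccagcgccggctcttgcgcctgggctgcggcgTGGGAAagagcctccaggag

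In windows from 250 bases before to 50 after each start, searched on both strands, Hes1, Hey2 and Notch4 held 2 cores each and Notch3 held 1. Of all 33469 windows in the table, 25.7% held at least 1 core and 3.85% at least 2. The windows of Notch1, Notch2, Jag1 and Jag2 (which has 2 listed starts) held none. The N-box CACNAG, the element HES proteins bind, occurred 4 times each in the windows of Hes1 and Notch1, 2 times in Notch4 and once in Notch3. The windows of Hey2, Notch2, Jag1 and Jag2 held none. Thus 4 of the 8 matched genes had an N-box, close to the 43.1% of all windows with at least 1, and 11.2% of all windows held at least 2. The E-box CACGTG was in 0 of the 8 matched genes and in 6.42% of all windows. Promoters of Hey1 and Dll4 were not analysed here. These matches describe letters, not bound sites.

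The total count was 72483469 to 74401683 in siMettl3 libraries and 71202469 to 76668751 in siNC libraries. Mettl3, the targeted gene, encodes the methyltransferase that deposits N6-methyladenosine on RNA. It measured 10.3, 10.6 and 9.90 FPKM in siMettl3 cells, against 18.2, 17.2 and 15.3 FPKM in siNC cells. FPKM is a fragment count divided by the length of the transcript and the size of the library. The edgeR quasi-likelihood test on the counts gave a log2 fold change of -0.80 (SE 0.0802, adjusted p = 0.00122). Markers of the labelled cell type were abundant: troponin Tnnt2 measured 4010 ± 360 FPKM in siMettl3 cells and 3662 ± 221 FPKM in siNC cells (SD, n = 3 each). Markers of other cell types were present as well.

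Of the 10 genes, 9 passed the filter on low counts and were tested, and 1 of them, Jag2, rose. None fell. That is 11.1% of those tested, against 8.47% of all 16544 genes tested (2.87% called higher and 5.6% lower), so the share called was close to the background. Of the 9, 7 had a log2 fold change above 0, with a median of 0.11, against a median of -0.0025 and 49.6% above 0 over all genes tested. By limma on log2(FPKM + 1) 8 were tested and Jag2 was again the gene that rose, against 10.9% of all genes (6.53% higher and 4.4% lower). By DESeq2 it was Jag2 too, against 11.1% of the 21229 genes with a DESeq2 p-value (4.71% higher and 6.41% lower). Those include low-count genes without an adjusted p, Dll4 among them, so this share has another base than those of edgeR and limma. At an unadjusted edgeR p under 0.05 it was still 1 of 9, against 24.4% of all genes. By FPKM, the siMettl3 libraries lay wholly above the siNC libraries for 4 of the 10 (Notch2, Jag2, Dll4 and Hes1), as they did for 23.2% of all genes tested, and wholly below for 0 of 10, against 10.9%, or 34.1% of all genes in either direction. FPKM carries no correction for composition. The scaling factors edgeR computed from the counts were 1.02 to 1.04 in siMettl3 libraries and 0.966 to 0.981 in siNC libraries, so fold changes from counts lie somewhat below those from FPKM. Over all genes edgeR called 475 higher and 927 lower, whereas limma called 856 higher and 576 lower.

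**Figure D1:**
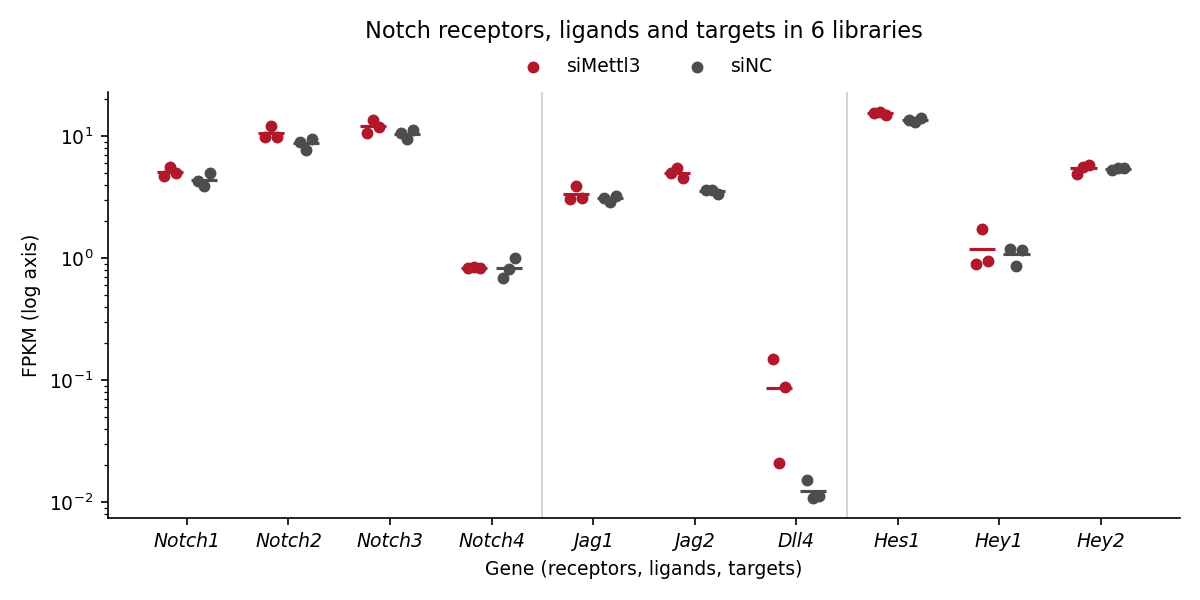
FPKM on a log axis of the 10 Notch genes in each library, siMettl3 left of siNC; points are libraries and bars are means of 3. Hes1 is the most abundant at 12.9 to 15.8 FPKM, Dll4 lies at 0.150 FPKM or below in every library, and the points of Jag2 separate by group.

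The receptors were led by Notch3 and Notch2. The positions given are those of the deposited table, whose build is not named. Notch3 (ENSRNOG00000004346, chromosome 7, 14138495 to 14189688), the receptor of mural cells, measured 10.6, 13.6 and 11.8 FPKM in siMettl3 replicates 1, 2 and 3, against 10.5, 9.50 and 11.1 FPKM in siNC replicates 1, 2 and 3. Its groups overlapped (log2 fold change 0.13, 95% interval -0.085 to 0.35, edgeR adjusted p = 0.445). Notch2 (ENSRNOG00000018835, chromosome 2, 200187179 to 200320215), which is broadly expressed, measured 9.88, 12.2 and 9.76 FPKM in siMettl3 cells, against 8.87, 7.70 and 9.48 FPKM in siNC cells. Its groups did not overlap, but the gap between them was small and the gene did not pass (0.21, interval -0.025 to 0.44, edgeR adjusted p = 0.258). Notch1 (ENSRNOG00000019322, chromosome 3, 3905453 to 3951025), the receptor best studied in endothelium and in the developing heart, measured 4.67, 5.58 and 4.99 FPKM in siMettl3 cells, against 4.27, 3.91 and 4.98 FPKM in siNC cells. These values overlapped as well (0.13, interval -0.10 to 0.36, edgeR adjusted p = 0.479). The intervals allow a rise of up to 1.28-fold for Notch1, 1.36-fold for Notch2 and 1.27-fold for Notch3.

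Notch4 (ENSRNOG00000000442, chromosome 20, 4329811 to 4353785), an endothelial receptor, was the scarcest of the 4. It measured 0.829, 0.840 and 0.823 FPKM in siMettl3 cells, against 0.680, 0.815 and 1.01 FPKM in siNC cells. The siMettl3 values fell inside the range of the siNC values (-0.086, interval -0.45 to 0.28, edgeR adjusted p = 0.796). The table has another gene, LOC103689965, on the opposite strand over the same stretch of chromosome 20, with up to 576 counts in a library. Whether the counting used strand is not given in the sources used here, so reads of this pair may be shared.

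The make-up of the receptor pool overlapped between the groups. Notch3 held 42.0% ± 1.17 of the summed receptor FPKM in siMettl3 cells and 42.7% ± 0.877 in siNC cells (SD, n = 3 each). Notch2 held 37.2% ± 1.31 in siMettl3 cells and 35.8% ± 0.679 in siNC cells. Notch1 held 17.9% ± 0.460 in siMettl3 cells and 18.1% ± 0.639 in siNC cells, and Notch4 held 2.94% ± 0.297 in siMettl3 cells and 3.44% ± 0.556 in siNC cells. The groups overlapped for each of the 4 shares. The ratio of Notch3 to Notch1 was 2.35 ± 0.0848 in siMettl3 cells and 2.37 ± 0.129 in siNC cells.

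Notch1, Notch2 and Notch3 were each highest in siMettl3 replicate 2 and lowest in siNC replicate 2 within their group, and both libraries also stood apart for long messages in general. Replicate 2 had the highest FPKM of its group for 8 of the 10 genes in siMettl3 cells (41.7% of all genes tested) and replicate 3 for 7 of the 10 in siNC cells (36.7%). In siNC replicate 2, 7 of the 10 had their lowest value (39.3%). The length implied by counts and FPKM was 9.80 kb for Notch1, 11.9 kb for Notch2, 7.53 kb for Notch3, 6.66 kb for Notch4, 5.74 kb for Jag1 and 4.66 kb for Jag2. For the 1130 genes over 6 kb, the median log2 CPM (counts scaled to library size, relative to the mean of 6 libraries) was 0.016, 0.22 and -0.018 in siMettl3 replicates 1, 2 and 3, against -0.077, -0.20 and 0.099 in siNC replicates 1, 2 and 3. For the 4506 genes under 1.5 kb it was 0.0063, -0.12 and 0.026 in siMettl3 libraries, against 0.066, 0.12 and -0.014 in siNC libraries, so the direction was turned round in both libraries numbered 2.

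With each library's trend with length taken out, the log2 fold changes of these 3 receptors lay close to 0. This fit also removes any difference between the groups that genes of like length share, whatever its source. The value was -0.014 for Notch1 (edgeR adjusted p = 0.915), 0.027 for Notch2 (0.808) and 0.015 for Notch3 (0.909). That fit was chosen after seeing the data, as was one without replicate 2 of both groups, which gave -0.0062 for Notch1, 0.031 for Notch2 and -0.016 for Notch3. Notch4 was -0.17 with the length trend removed (edgeR adjusted p = 0.519).

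**Figure D2:**
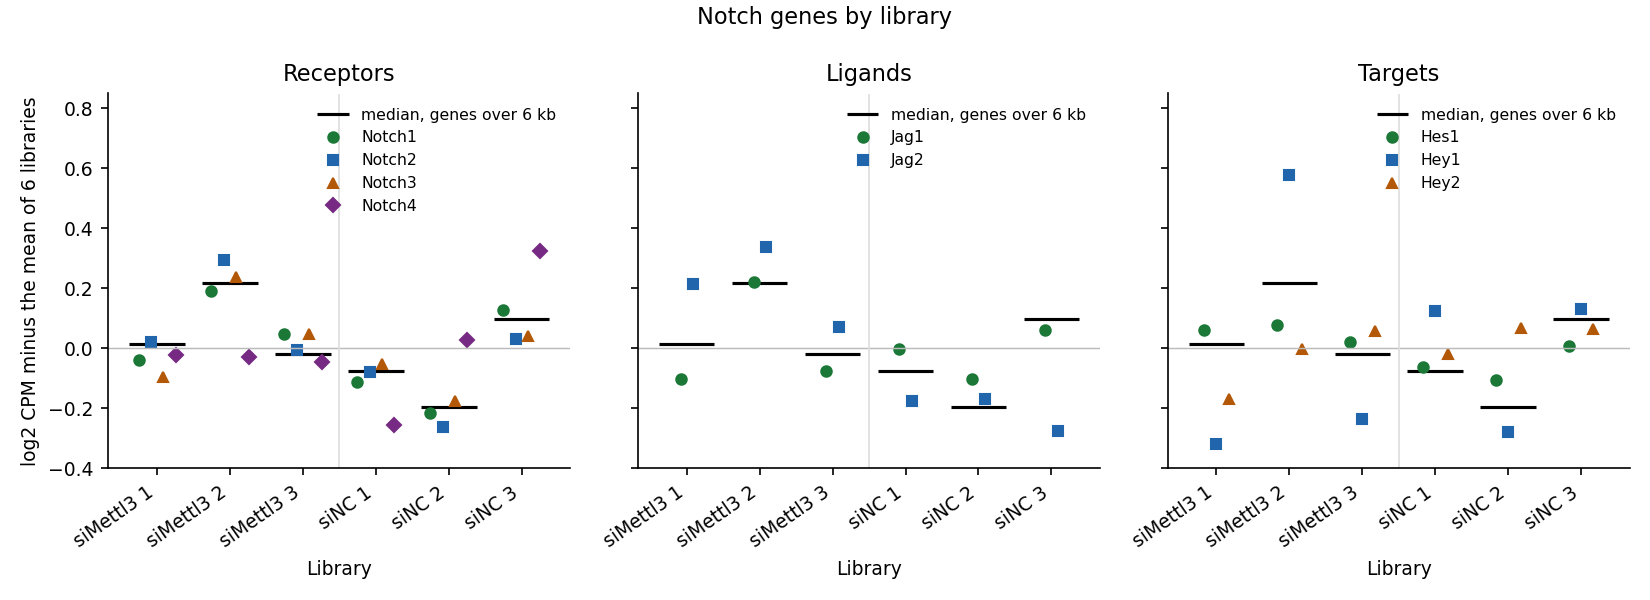
log2 CPM of 9 Notch genes in each library relative to the gene's mean over 6 libraries, for receptors, ligands and targets, with siMettl3 libraries left of siNC libraries; black bars are the median of 1130 genes over 6 kb. Notch1, Notch2 and Notch3 lie above 0 in siMettl3 replicate 2 and below 0 in siNC replicate 2, as the black bars do, and Notch3 lies below the bar in siMettl3 replicate 1 (-0.097 against 0.016); Jag2 lies above 0 in the 3 siMettl3 libraries and below 0 in the 3 siNC libraries.

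Among the ligands, Jag2 was higher in siMettl3 cells. Jagged proteins are transmembrane ligands of the Serrate type, and Jag2 is known from mouse genetics for its part in limb, palate and thymus development. Jag2 measured 4.94, 5.49 and 4.51 FPKM in siMettl3 cells, against 3.63, 3.59 and 3.35 FPKM in siNC cells. The counts were 1706, 1904 and 1523 in siMettl3 cells, against 1299, 1253 and 1112 in siNC cells. The lowest siMettl3 library lay above the highest siNC library on both scales. The log2 fold change was 0.42 (SE 0.0903, 95% interval 0.21 to 0.62, edgeR adjusted p = 0.0271), a 1.34-fold rise, and limma gave 0.40 (adjusted p = 0.0332) and DESeq2 0.43 (adjusted p = 0.00188). With the length trend removed it was 0.37 (edgeR adjusted p = 0.0221). Jag2 is ENSRNOG00000013927, and the table has it on chromosome 6 at 137711155 to 137733026.

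The call of Jag2 was close to the threshold. When 1 library was left out, the log2 fold change was 0.35 to 0.49. The edgeR adjusted p was 0.0972, 0.0701 and 0.0311 without siMettl3 replicates 1, 2 and 3 and 0.0983, 0.0638 and 0.0598 without siNC replicates 1, 2 and 3, so the call was kept only without siMettl3 replicate 3. It was also lost without replicate 2 of both groups (0.37, adjusted p = 0.0866). In the same libraries 17 endothelial markers summed to 65.9 to 70.6 FPKM in siMettl3 cells and 71.0 to 75.0 FPKM in siNC cells. That sum rests mostly on Eng, at 39.4 ± 2.94 FPKM in siMettl3 cells and 45.3 ± 3.14 FPKM in siNC cells (SD, n = 3 each). The 15 endothelial markers tested had a median log2 fold change of 0.011, with 2 called higher and 1 lower. The 12 smooth muscle and pericyte markers summed to 3518 to 3788 FPKM in siMettl3 cells and 4700 to 5308 FPKM in siNC cells. That sum rests mostly on Acta2, Tagln and Des. Of the 12, 9 had a log2 fold change below 0 and 3 (Cspg4, Kcnj8 and Abcc9) had one above. The part of these cell types in the value of Jag2 was not tested.

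Jag1 (ENSRNOG00000007443, chromosome 3, 130079361 to 130114770), which shares the Serrate-type structure and is the ligand mutated in most human Alagille syndrome, did not pass. It measured 3.03, 3.86 and 3.10 FPKM in siMettl3 cells, against 3.13, 2.87 and 3.23 FPKM in siNC cells. Apart from siMettl3 replicate 2 the libraries of both groups lay within the same narrow range (0.036, interval -0.21 to 0.28, edgeR adjusted p = 0.876). The direction turned without siMettl3 replicate 2 (-0.073) and without siNC replicate 2 (-0.0064). The ratio of Jag2 to Jag1 FPKM was 1.63, 1.42 and 1.45 in siMettl3 cells, against 1.16, 1.25 and 1.04 in siNC cells. The ratio separated the groups without overlap, which an exact permutation test on 3 against 3 libraries cannot carry below p = 0.10.

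Dll4 (ENSRNOG00000014011, chromosome 3, 111135021 to 111145986), the Delta-type ligand of arterial and sprouting endothelium, was very low in both groups. Its counts were 53, 8 and 30 in siMettl3 cells, against 6, 4 and 4 in siNC cells, which is 0.150, 0.0211 and 0.0874 FPKM in siMettl3 cells, against 0.0151, 0.0107 and 0.0113 FPKM in siNC cells. All siMettl3 libraries lay above all siNC libraries, but they differed among themselves more than the groups' nearest libraries did. Dll4 did not reach the filter and has no test in the fit used for the other genes. With no filter the log2 fold change was 2.62 (SE 0.836, interval 0.76 to 4.47, edgeR adjusted p = 0.1004). Where a library was left out Dll4 could clear the filter, but only through the siMettl3 libraries, where it is higher, so no such fit is read as a test of it.

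**Figure D3:**
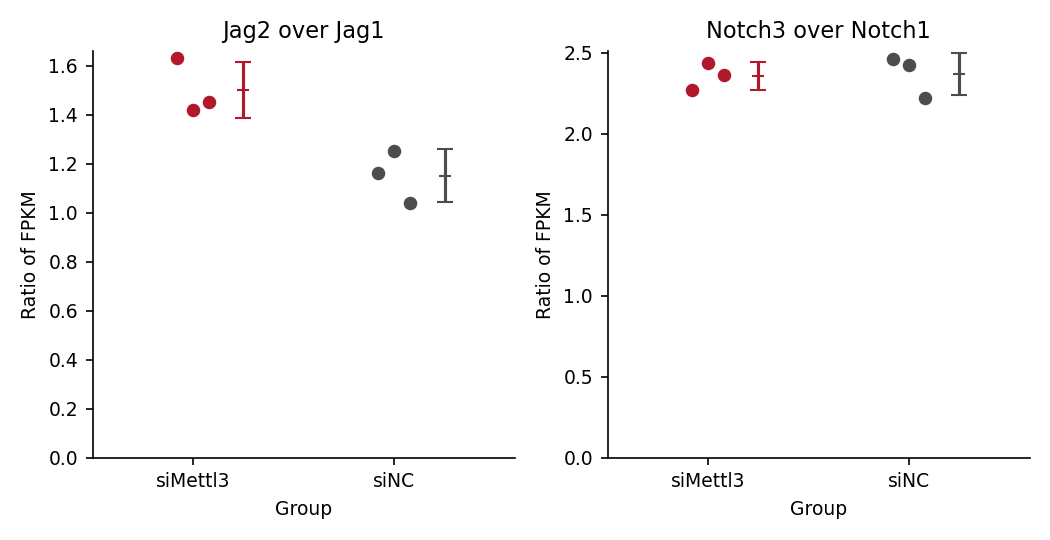
Ratio of Jag2 to Jag1 FPKM and of Notch3 to Notch1 FPKM in each library, siMettl3 left of siNC; points are libraries, and the bar beside them is the mean with its SD (n = 3). The Jag2 to Jag1 ratios lie at 1.42 to 1.63 in siMettl3 cells and 1.04 to 1.25 in siNC cells, whereas the Notch3 to Notch1 ratios overlap.

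None of the 3 target genes passed. Hes1 (ENSRNOG00000001720, chromosome 11, 74312806 to 74315248), a bHLH repressor that Notch induces in many tissues and that also represses its own promoter, was the most abundant of the 10 genes and stood above 75.8% of all genes with any count. It measured 15.3, 15.8 and 15.0 FPKM in siMettl3 cells, against 13.5, 12.9 and 14.03 FPKM in siNC cells. The libraries separated by group in FPKM, and the difference was smaller in counts after scaling (0.11, interval -0.055 to 0.27, edgeR adjusted p = 0.401). limma gave 0.17 (adjusted p = 0.0888). The interval allows a rise of up to 1.205-fold.

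Hey2 (ENSRNOG00000013364, chromosome 1, 29191192 to 29201531), the HEY repressor of ventricular myocardium, measured 4.89, 5.59 and 5.76 FPKM in siMettl3 cells, against 5.23, 5.46 and 5.48 FPKM in siNC cells. The siNC libraries lay inside the range of the siMettl3 libraries (-0.074, interval -0.29 to 0.14, edgeR adjusted p = 0.685). By limma its log2 fold change was 0.0022, so its sign depended on the scaling. Hey1 (ENSRNOG00000011593, chromosome 2, 95320283 to 95322696), the HEY repressor of atrial myocardium and endothelium, measured 0.888, 1.72 and 0.954 FPKM in siMettl3 cells, against 1.18, 0.863 and 1.16 FPKM in siNC cells. Its counts were 65, 126 and 68 in siMettl3 cells, against 89, 64 and 82 in siNC cells. A single library, siMettl3 replicate 2, was far above the rest, and without it the log2 fold change was -0.29 rather than 0.066 (interval with all libraries -0.65 to 0.78, edgeR adjusted p = 0.924).

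**Figure D4:**
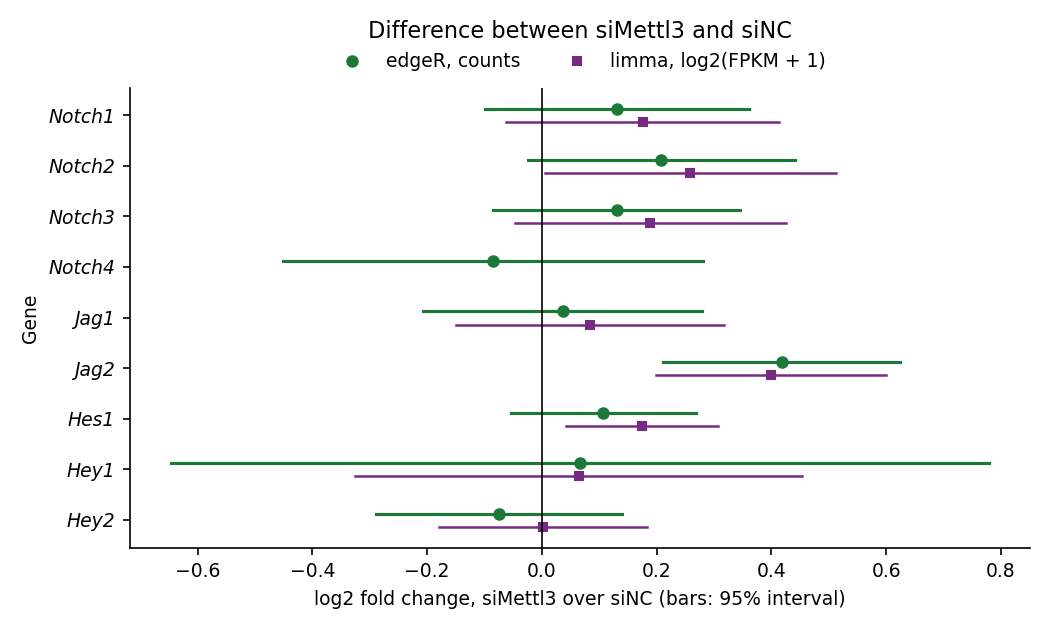
log2 fold change of siMettl3 over siNC for the 9 Notch genes tested by edgeR on counts (circles) and the 8 tested by limma on log2(FPKM + 1) (squares), with 95% intervals. The edgeR interval lies wholly above 0 for Jag2 (0.21 to 0.62) and covers 0 for the other genes; the limma estimate lies to the right of the edgeR estimate for 6 of 8 genes.

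The order of mean levels was the same in both groups. In siMettl3 cells, as in siNC cells, it ran Hes1, Notch3, Notch2, Hey2, Notch1, Jag2, Jag1, Hey1, Notch4 and Dll4. In siMettl3 cells the libraries of 3 neighbouring pairs overlapped (Notch3 with Notch2, Hey2 with Notch1, and Notch1 with Jag2). In siNC cells the pair that overlapped was Hey1 with Notch4. Jag2 was thus within the range of Notch1 in siMettl3 cells, at 4.98 ± 0.490 and 5.08 ± 0.464 FPKM, and below it in siNC cells, at 3.53 ± 0.154 and 4.39 ± 0.545 FPKM (SD, n = 3 each).

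The genes whose pattern over the 6 libraries came closest to that of Jag2 were Lmln, which encodes a metallopeptidase, and Grik5, a kainate receptor subunit. Their root-mean-square differences from Jag2 in centred log2 CPM were 0.025 and 0.039, among 13056 genes averaging 1 FPKM or more. Grik5 measured 18.2 ± 1.55 FPKM in siMettl3 cells and 12.7 ± 0.619 FPKM in siNC cells (log2 fold change 0.44), and Lmln 2.78 ± 0.230 FPKM in siMettl3 cells and 1.94 ± 0.0848 FPKM in siNC cells (0.44). Both were picked for their likeness to Jag2, so their differences between the groups are a description.

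A list of 79 further pathway genes was drawn up from general knowledge, with 76 found and 69 tested. Of these, 1 rose and 5 fell by edgeR. It called 2.87% of all genes tested higher and 5.6% lower, so the number called in this fit was close to the background. The median log2 fold change was 0.022, against -0.0025 over all genes. Genes of ligand endocytosis, receptor glycosylation, the nuclear complex, the corepressors and the inhibitors had 0 of 41 called by edgeR. By limma, which tested fewer of them, none was called. DESeq2 called 4, and 11 had an unadjusted edgeR p under 0.05. Over all genes the shares called were 8.47% by edgeR, 10.9% by limma and 24.4% at the unadjusted edgeR p. By DESeq2 it was 11.1% of the 21229 genes with a p-value, some of them without an adjusted p. Rbpj, the DNA-binding core of the pathway, measured 30.5 ± 1.28 FPKM in siMettl3 cells and 28.9 ± 3.20 FPKM in siNC cells. Epn1, an epsin of endocytosis, measured 51.3 ± 1.65 FPKM in siMettl3 cells and 49.6 ± 1.91 FPKM in siNC cells. Poglut1, which adds glucose to the receptor, measured 19.4 ± 0.298 FPKM in siMettl3 cells and 19.7 ± 0.345 FPKM in siNC cells. The histone deacetylase Hdac2 averaged 84.3 FPKM in siMettl3 cells and 75.8 FPKM in siNC cells, and the ubiquitin ligase Nedd4 measured 251.2 ± 12.4 FPKM in siMettl3 cells and 217 ± 15.1 FPKM in siNC cells.

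Among the proteases, Furin, the convertase that cuts the receptor precursor on its way to the surface, was higher in siMettl3 cells. It measured 79.4 ± 9.94 FPKM in siMettl3 cells and 57.6 ± 1.52 FPKM in siNC cells (log2 fold change 0.38, SE 0.0839, edgeR adjusted p = 0.0285). Furin cuts many other precursors as well. Its call was lost without siMettl3 replicate 1 or 3 (edgeR adjusted p = 0.0558 and 0.0503) and without siNC replicate 1 or 2 (0.131 and 0.0845). The other 8 proteases tested, from Adam10 to the gamma-secretase subunits, did not pass.

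Of 3 tested ligands outside the members, 0 rose and 2 fell, where 2.87% of all genes tested were called higher and 5.6% lower. Dlk1, a Delta-like protein without the domain that activates the receptor and best known from fat cell precursors, fell to 3.35 ± 0.478 FPKM in siMettl3 cells, against 5.51 ± 0.445 FPKM in siNC cells (-0.79, edgeR adjusted p = 0.0121). Its call was lost without siMettl3 replicate 1 (0.0533) and without siNC replicate 1 (0.0687). Dner, a Delta-like protein of neurons, fell to 0.661 ± 0.132 FPKM in siMettl3 cells, against 1.34 ± 0.0595 FPKM in siNC cells (-1.10, edgeR adjusted p = 0.00796). Dll1, a canonical Delta-type ligand, measured 0.467 ± 0.0369 FPKM in siMettl3 cells and 0.673 ± 0.0299 FPKM in siNC cells without passing (-0.61, edgeR adjusted p = 0.0659), though it did pass with the length trend removed.

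Of 16 further genes reported as Notch targets in some tissues, 0 rose and 3 fell by edgeR, which called 2.87% of all genes tested higher and 5.6% lower. By limma 14 were tested, and 1 rose (Ephb4) and 3 fell, against 6.53% of all genes higher and 4.4% lower. DESeq2 called Ephb4 and Snai1 besides the 3 called by edgeR. Snai2, a zinc-finger repressor of epithelial genes, fell to 2.64 ± 0.406 FPKM in siMettl3 cells, against 5.02 ± 0.302 FPKM in siNC cells (-1.004, edgeR adjusted p = 0.00489). Nrg1, the neuregulin ligand of endocardium, fell to 1.22 ± 0.117 FPKM in siMettl3 cells, against 2.07 ± 0.102 FPKM in siNC cells (-0.85, edgeR adjusted p = 0.00473). Efnb2, the arterial ephrin, fell to 6.75 ± 0.466 FPKM in siMettl3 cells, against 8.72 ± 0.271 FPKM in siNC cells (-0.45, edgeR adjusted p = 0.00732), and its call was lost without siMettl3 replicate 1 (0.0527). Many other pathways act on these 3 genes. In the same libraries 12 fibroblast markers summed to 942 to 1005 FPKM in siMettl3 cells and 1530 to 1604 FPKM in siNC cells, and 13 macrophage markers to 42.2 to 57.2 FPKM in siMettl3 cells and 82.2 to 101 FPKM in siNC cells. The part of these cell types in the values of Snai2, Nrg1, Efnb2, Dlk1 and Dner was not tested. Heyl, the HEY family member of smooth muscle, measured 4.22 ± 0.176 FPKM in siMettl3 cells and 3.44 ± 0.0724 FPKM in siNC cells (0.21, edgeR adjusted p = 0.131). Hes5 had a count of 0 in all 6 libraries, and a count of 0 is compatible with up to 3 counts in a library, for counting error only.

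**Figure D5:**
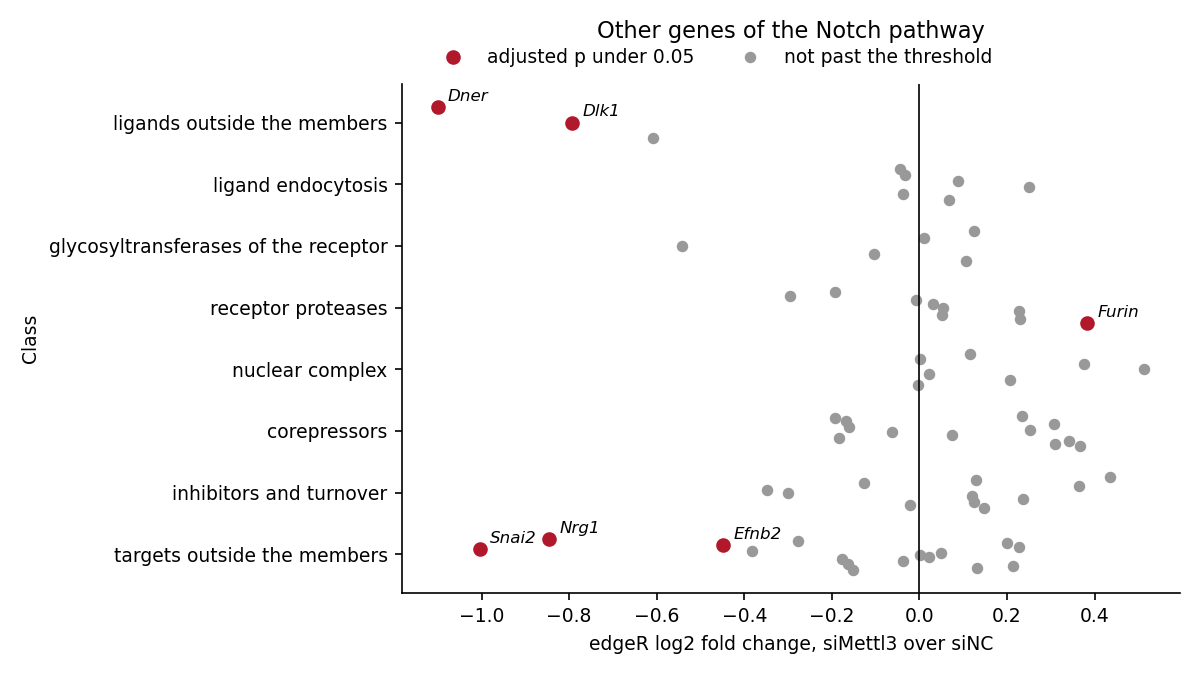
edgeR log2 fold change of siMettl3 over siNC for 69 further genes of the Notch pathway by class; each point is a gene, and red points passed an adjusted p of 0.05. Furin lies to the right of 0, and Dlk1, Dner, Snai2, Nrg1 and Efnb2 lie to the left.

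The counts of called pathway genes depended on the libraries and on the fit. With siMettl3 replicates 1, 2 and 3 left out in turn 0, 1 and 0 of the 69 rose and 3, 5 and 5 fell, and with siNC replicates 1, 2 and 3 left out 0, 0 and 3 rose and 4, 6 and 6 fell. Dner, Snai2 and Nrg1 were called in each of those 6 fits. With all libraries, 5 genes of the list rose and 7 fell by DESeq2, and 4 rose and 8 fell with the length trend removed. With the replicate number as a block 0 rose and 0 fell, so these 3 genes were lost there. The table's own annotation gives the term Notch signaling pathway to 97 genes, all 10 members among them. Of the 86 tested, 1 rose (Jag2) and 7 fell (Angpt4, Chac1, Foxc2, Gmds, Pgam2, Rcan2 and Snai2), where 8.47% of all genes tested were called, so this count too was close to the background. The term was looked up after its values could be seen. Chac1, which in mouse blocks the maturation of the Notch receptor, fell to 4.71 ± 0.560 FPKM in siMettl3 cells, against 7.42 ± 0.503 FPKM in siNC cells (-0.73, edgeR adjusted p = 0.00999), and was called whichever library was left out. So were Rcan2 and Snai2. Foxc2 and Gmds were lost in each of those fits, Angpt4 without siMettl3 replicate 1 or siNC replicate 1, and Pgam2 without siMettl3 replicate 1.

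Notch genes are shared between cell types, and markers of several of these differed between the groups. Of 15 tested endothelial markers 2 rose, Cdh5 (0.70, edgeR adjusted p = 0.00712) and Tek (0.40, adjusted p = 0.0293), and 1, Egfl7, fell (-0.65, adjusted p = 0.0337). Over all genes tested, edgeR called 2.87% higher and 5.6% lower. Robo4 and Cldn5 were below 0.1 FPKM. The most abundant of them did not pass: Eng measured 39.4 ± 2.94 FPKM in siMettl3 cells and 45.3 ± 3.14 FPKM in siNC cells, Kdr 7.63 ± 0.643 FPKM in siMettl3 cells and 7.03 ± 0.728 FPKM in siNC cells, and Flt1 4.72 ± 0.310 FPKM in siMettl3 cells and 5.22 ± 0.449 FPKM in siNC cells. Cdh5 was called whichever library was left out, Tek only without siNC replicate 3, and Egfl7 in none of those fits.

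Of the markers of other cell types, led in level by Acta2, Tagln and Des (smooth muscle), Col1a1, Col3a1 and Postn (fibroblast), Lyz2, Cd68 and Fcer1g (macrophage), Krt18, Upk1b and Krt19 (epicardial) and Nppa, Actc1 and Tnnt2 (cardiomyocyte), none was called higher by edgeR. Of 12 smooth muscle and pericyte markers 5 fell (Acta2, Tagln, Myh11, Cnn1 and Anpep) and 0 rose, where 2.87% of all genes tested were called higher and 5.6% lower. The pericyte markers Rgs5, Cspg4, Pdgfrb, Kcnj8 and Abcc9 were not called by edgeR, whereas the pericyte marker Anpep fell (-0.51, edgeR adjusted p = 0.00712). Of these, Kcnj8 measured 3.52 ± 0.124 FPKM in siMettl3 cells and 2.73 ± 0.184 FPKM in siNC cells, Abcc9 13.6 ± 2.07 FPKM in siMettl3 cells and 9.58 ± 1.53 FPKM in siNC cells, and Cspg4 13.5 ± 1.92 FPKM in siMettl3 cells and 11.02 ± 0.907 FPKM in siNC cells, with no overlap between the groups, and DESeq2 called Abcc9 higher (0.43, adjusted p = 0.0153). Over all genes tested, 23.2% lay wholly above in the same way. Pdgfrb and Rgs5 overlapped, with log2 fold changes of -0.20 and -0.19. Of 12 fibroblast markers 8 fell, and of 13 macrophage markers 10 fell, against the same 5.6% of all genes. Of 7 tested epicardial and mesothelial markers 3 fell, and of 13 cardiomyocyte markers 3 fell. All 8 listed epicardial markers together summed to 37.2 to 44.8 FPKM in siMettl3 libraries and 42.0 to 45.9 FPKM in siNC libraries. Among them Krt19 and Tbx18 lay wholly above the siNC libraries, and DESeq2 called Krt19 higher (0.44, adjusted p = 0.0488). All 13 cardiomyocyte markers together summed to 22502 to 26364 FPKM in siMettl3 libraries and 26441 to 30809 FPKM in siNC libraries. That difference rests mostly on Nppa, at 9005 ± 1038 FPKM in siMettl3 cells and 11628 ± 1249 FPKM in siNC cells, and on Actc1. Actc1 measured 4461 ± 443 FPKM in siMettl3 cells and 6104 ± 679 FPKM in siNC cells. Of the 13, 9 had a log2 fold change below 0 and 4 above, Tnnt2 and Myh6 among the latter. By limma 0 of the 13 were called. With 1 library left out, 5 smooth muscle markers fell in every fit. The number was 4 to 7 for the fibroblast list (4 without siNC replicate 1, and 5 without siMettl3 replicate 1 or 2), 5 to 6 for the macrophage list whichever library was left out, and 2 to 4 for the epicardial list (3 without siMettl3 replicate 3, 4 without siNC replicate 3 and 2 otherwise). For the cardiomyocyte list it was 0 without siMettl3 replicate 1 or 3 or siNC replicate 1, 1 without replicate 2 of either group and 3 without siNC replicate 3. The part of these cell types in the values of the other Notch genes was not tested.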

How the data were processed

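Per the file headers, the authors deposited 1 table with whole-number counts and FPKM per gene for each of 6 libraries. In it an FPKM of 0.0001 stands exactly where the count is 0, and it was read as 0. Bowtie 0.12.2 and mm8 (a mouse build) are listed, with no role given, per the submitters' processing notes; the quantifier, the build behind the rat coordinates and strand use are not given in the sources used here. Counts were tested with edgeR 4.0.16 (R 4.3.3; TMM scaling, filterByExpr with a minimum count of 10, robust quasi-likelihood, 2-sided), with Benjamini-Hochberg adjustment over all 16544 genes tested and a threshold of 0.05. The standard error is the log2 fold change divided by the root of the F statistic. limma 3.58.1 with an intensity trend on log2(FPKM + 1), for 13105 genes averaging 1 FPKM or more, and DESeq2 1.42.0 stand beside it; on the limma scale fold changes of low genes are compressed. The length fit gave edgeR an offset per library from a smooth curve of log2 CPM against the length implied by counts and FPKM.

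Library totals were 71202469 to 76668751 counts, and at that depth the spread between libraries, not counting error, limits most genes named, Dll4 excepted. Replicate counts differed beyond sampling noise in every pair (chi-square over its degrees of freedom 21.3 to 60.1). The steps were tested on simulated data. The named genes were the members, Mettl3, the called genes (up to 4) or otherwise the most abundant gene of each pathway class, the 3 most abundant markers per list and the 2 genes closest to each called member. Called markers, the pericyte markers, Dll1, Heyl, Hes5, Ephb4, Snai1 and the genes of the annotation term were named after their values were seen. The members and lists were chosen with earlier results of these data known. Maml3, Kat2b, Hes4, Pecam1, Col1a2 and Ttn were not analysed here.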

Additional observations from a re-analysis of the deposited data

How the results depend on the processing

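Jag2 stayed the called Notch gene under median-ratio and upper-quartile scaling, with no filter, with a filter at a mean of 1 FPKM, by DESeq2, by limma at either pseudocount (1 or 0.1) and with the length trend removed. The number of Notch genes called was 0 without replicate 2 of both groups and 0 to 1 with 1 library left out. Without siMettl3 replicate 2 the 1 counted was Dll4, which cleared the low-count filter only through the siMettl3 libraries and is not read as a call, and Jag2 did not pass. Over all genes 1402 were called, 2359 by DESeq2, 2270 with the length trend removed, 868 without replicate 2 of both groups and 458 to 1366 with 1 library left out, where fewer libraries enter each fit. Of the 1402, 1394 were also called by DESeq2, 1369 with the length trend removed and 733 without replicate 2 of both groups.

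The replicate numbers were treated as names of the libraries. The deviations of same-numbered libraries correlated at 0.035, -0.25 and -0.12, against -0.19 to 0.27 for differently numbered ones. These deviations are taken from means of 3 libraries, so they cannot show whether the libraries were paired. With the replicate number as a block 159 genes and 0 Notch genes were called, and Jag2 had a log2 fold change of 0.41 (edgeR adjusted p = 0.111).

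Directions turned for genes that passed in no fit. Hey2 was 0.0022 and 0.0021 by limma with pseudocounts of 1 and 0.1. Without replicate 2 of both groups Notch1 was -0.0062, Notch3 -0.016, Jag1 -0.12 and Hey1 -0.41. With the length trend removed Notch1 was -0.014 and Jag1 -0.042. With 1 library left out Jag1 ran over -0.073 to 0.10, Hey1 over -0.29 to 0.24 and Notch4 over -0.22 to 0.073. The causes were not tested. Depth limits what can be detected for Dll4, with 4 to 53 counts in a library.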
